A study of Homo sapiens with 6 samples.

Results

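The genes described here are the listed protein-coding genes of cell guidance and morphogen signalling: the semaphorins with their plexins and neuropilins, the ephrins and Eph receptors, the netrins and Slits with their receptors, and the Wnt, Notch, and BMP and TGF-beta families. They were picked by the starts of their gene symbols, and the families were chosen with earlier results of these data known. The rule found 67 of the 6641 genes in the deposited table of FPKM (fragments per kilobase of transcript, scaled to the mapped fragments of the library). Of these, 20 belonged to the semaphorin system, 16 to the Eph system, 6 to the netrin and Slit system, 10 to the Wnt system, 3 to the Notch system and 12 to the BMP and TGF-beta system. GENCODE 29 annotates 152 protein-coding genes under these names, and the other 85 were not analysed here.

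RNA of 2 human cell lines was sequenced, with 3 libraries each. HCC827, a long-established line, comes from a lung adenocarcinoma and its growth depends on a mutated epidermal growth factor receptor, EGFR. HCC827_Er is its resistant counterpart, and the series relates the pair to resistance against EGFR tyrosine kinase inhibitors and to crotonylation of histone lysines. The labels give no agent, dose or passage, and do not say whether HCC827_Er is 1 clone, whether an inhibitor was present at harvest, or whether replicate libraries stem from different cultures. The p-values therefore measure the spread between these libraries, which may be technical. With 3 libraries against 3, an exact permutation test of a single gene cannot go below p = 0.1.

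Signalling of these families passes between neighbouring cells. Semaphorins bind plexins, often with neuropilins as co-receptors, and ephrins, which stay on the cell surface, bind Eph receptor tyrosine kinases on the next cell; both systems were found in growing axons and also steer epithelial and tumour cell adhesion and movement. Netrins and Slits are secreted cues read by the DCC, UNC5 and ROBO receptors. Wnt ligands act through Frizzled receptors on beta-catenin and other branches, Notch receptors are cleaved after contact with Delta or Jagged ligands, and BMP and TGF-beta ligands act through serine/threonine kinase receptors on SMAD proteins. All of these systems shape the branching lung epithelium during development.

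The reference windows before the RefSeq start of 5 members are shown for the sequence around genes the results turn on. They belong to NRP2, EFNA5, FZD5 and NOTCH3, which were higher in HCC827_Er, and to EPHA2, which was lower. In GENCODE 29 the NRP2 window lies inside the gene, since a further transcript of NRP2 starts before it. The sequences are RefSeq's on GRCh38.p14, run 5′ to 3′ on the gene's strand and hold no exon base annotated in GENCODE 29, those nearest the start being left off. Capitals mark the GC box, GGGCGG or its reverse complement CCGCCC, the core of sites bound by Sp1-type factors. The NRP2 window is chr2:205682251-205682499 (plus strand), the EFNA5 window chr5:107670938-107671187 (minus strand), the EPHA2 window chr1:16156088-16156319 (minus strand), the FZD5 window chr2:207769907-207770156 (minus strand) and the NOTCH3 window chr19:15200996-15201245 (minus strand).
NRP2: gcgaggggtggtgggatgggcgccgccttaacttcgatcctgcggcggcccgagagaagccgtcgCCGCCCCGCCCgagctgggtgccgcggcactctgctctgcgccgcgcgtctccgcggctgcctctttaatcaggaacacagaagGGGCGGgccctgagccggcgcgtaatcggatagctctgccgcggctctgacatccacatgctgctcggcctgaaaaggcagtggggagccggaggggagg
EFNA5: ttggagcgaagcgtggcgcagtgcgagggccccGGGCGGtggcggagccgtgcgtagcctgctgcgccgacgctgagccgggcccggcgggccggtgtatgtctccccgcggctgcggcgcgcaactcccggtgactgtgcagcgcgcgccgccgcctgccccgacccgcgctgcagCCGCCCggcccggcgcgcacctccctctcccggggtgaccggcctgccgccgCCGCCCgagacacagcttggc
EPHA2: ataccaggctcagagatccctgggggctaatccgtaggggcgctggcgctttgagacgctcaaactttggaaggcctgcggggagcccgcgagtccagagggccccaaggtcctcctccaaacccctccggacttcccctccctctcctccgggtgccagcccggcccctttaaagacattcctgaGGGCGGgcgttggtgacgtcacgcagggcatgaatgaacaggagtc
FZD5: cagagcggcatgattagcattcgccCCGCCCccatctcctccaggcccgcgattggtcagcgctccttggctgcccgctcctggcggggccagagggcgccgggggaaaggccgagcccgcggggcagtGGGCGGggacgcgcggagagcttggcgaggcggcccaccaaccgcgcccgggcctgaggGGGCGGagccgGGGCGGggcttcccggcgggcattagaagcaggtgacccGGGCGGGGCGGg
NOTCH3: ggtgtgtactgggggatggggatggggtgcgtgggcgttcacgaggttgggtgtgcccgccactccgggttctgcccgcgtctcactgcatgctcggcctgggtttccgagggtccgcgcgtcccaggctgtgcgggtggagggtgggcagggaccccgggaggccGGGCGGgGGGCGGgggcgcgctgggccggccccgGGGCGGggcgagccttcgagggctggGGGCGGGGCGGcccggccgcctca
The GC box was found 3 times in the NRP2 and EFNA5 windows, 1 time in EPHA2, 6 times in FZD5 and 5 times in NOTCH3, with overlapping matches counted and both strands read. Their GC content was 69.9%, 79.6%, 63.8%, 76.8% and 78.0% in the same order. The TCF/LEF core CTTTGA, read by the effectors of beta-catenin, was found in the EPHA2 window alone. The GC-rich SMAD sequence GGCGCC was found in the NRP2 and FZD5 windows. The TATA box TATAAA, the RBPJ core TGGGAA of the Notch effector and the SMAD palindrome GTCTAGAC were found in none of the 5 windows.

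The full RefSeq table holds windows from 250 bases before to 50 after each start, and 54 of the 67 members matched it. Motifs and GC content were read in the 250 bases before each start alone. Among the 35 members with a single start, 30 held the GC box, against 42.6% of all 35116 windows. The full set includes windows of noncoding genes and of genes with several starts, so it is unlike the member set. TATAAA was in 2 of the 35 and in 10.7% of all windows, TGGGAA in 8 and 20.8%, CTTTGA in 2 and 11.2%, and GGCGCC in 9 and 16.4%. The SMAD palindrome was in 0.182% of all windows and in none of these members. Median GC content was 70.0% among those 35 members and 58.0% over all windows. A match of letters is a description of the sequence and no measure of binding.

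Between the lines, 49 of the 67 members had at least 1 FPKM in at least 3 of the 6 libraries and were tested with limma on log2(FPKM + 1), with Benjamini-Hochberg adjustment over all 5276 genes tested. A gene is written as risen or fallen where adjusted p was under 0.05 and the difference at least 1 on this log2 scale. The difference is HCC827_Er minus HCC827, and either sign counted. A difference of 1 is 2-fold in FPKM + 1, the 2-fold minimum named below, and understates the change of low genes. A gene under this minimum can therefore differ by more than 2-fold in FPKM, as EFNA2, ROBO3, BMPR1B, SEMA3F and SMAD9 did. By the rule for calls, 24 of the 49 members rose and 7 fell. Over all genes tested, 44.4% were called, 24.7% as higher and 19.7% as lower. The tested members' median difference was 0.83, beside 0.43 over all genes tested.

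The filter itself favours some of these calls. Of the 49 tested members, 9 reached the minimum through the HCC827_Er libraries alone, of which 8 rose, and 4 through the HCC827 libraries alone, of which 2 fell. These were 18.4% and 8.16% of the tested members, beside 10.7% and 6.92% of all genes tested. The 8 that rose were SEMA4A, SEMA5B, SEMA6C, EFNB3, EPHA4, NTN1, DKK3 and NOTCH3, and the 2 that fell were SEMA6A and EPHA6. Of the pathway list genes named below, RNF43, KREMEN2, DNER, NEURL1B and INHBB entered through HCC827_Er alone, and CHL1 and GPC4 through HCC827 alone. Among the 32 members with at least 1 FPKM in all 6 libraries, 15 rose and 5 fell, which is 46.9% and 15.6%, beside 19.5% and 16.8% of the genes that passed that stricter minimum. With that minimum the median difference was 0.78 over the members and -0.39 over all genes, so the median of all genes changed sign with the filter. These shares describe the members that could be tested and are no test of the families.

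The table holds mostly genes that separate the lines, so the calls hold within it. An adjusted p under 0.05 without the 2-fold minimum was reached by 98.3% of all genes tested, and by 48 of the 49 tested members, all but DKK1. Non-overlapping libraries were found for 96.1% of the 6641 listed genes and for 66 of the 67 members, again all but DKK1. Both shares are near the background. Of these 66 members, 41 were higher in HCC827_Er and 25 lower. Over all listed genes without overlap, 3368 were higher and 3014 lower. Within a line, log2 values of tested genes correlated between libraries at r of 0.989 to 0.993, and between lines at 0.734 to 0.738.

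How the libraries are scaled shifts these counts. Median-ratio rescaling moved every difference by -0.34 before the pseudocount and gave 19 members higher and 11 lower, beside 17.1% and 31.7% of all genes tested. Rescaling to equal sums moved it by 0.25 and gave 26 higher and 5 lower, beside 34.6% and 15.0%. The same call held in all 3 scalings for 24 of the 31 members. SEMA4C, PLXNA3, EFNA3, EPHA4 and WNT7B were not called higher after median-ratio rescaling, and EPHA2 and SMAD7 were not called lower after sum rescaling.

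Markers of the labelled cell type were present. Of 8 epithelial markers 6 were listed, all above 4 FPKM in every library, and their summed level ran from 2197 to 2291 FPKM in HCC827 and from 2831 to 2923 FPKM in HCC827_Er. KRT8, most of the sum in HCC827, was at 1744 against 1025 FPKM (not called), while the other 5 rose, among them NKX2-1 from 5.93 to 65.7 and EPCAM from 30.1 to 296.7 FPKM. Of 7 neuronal markers, from the cells where guidance genes are best known, 2 were listed, summing to 215 to 227 FPKM in HCC827 and 80.9 to 98.2 FPKM in HCC827_Er, nearly all of it the tubulin gene TUBB3, which fell, while MAP2 rose from 0.18 to 1.81 FPKM. Of 8 endothelial markers 2 were listed (8.48 to 9.57 against 6.83 to 7.78 FPKM), with CDH5 at 0 in all HCC827 libraries. Of 10 fibroblast markers 3 were listed (2.46 to 3.35 against 9.33 to 11.5 FPKM). COL1A1 rose from 0.75 to 10.1 FPKM, COL3A1 was at 0 in all HCC827_Er libraries, and LUM was lower, at 1.81 against 0.53 FPKM (not called). Of 9 leukocyte markers 6 were listed, summing to 173 to 179 against 131 to 144 FPKM, most of it CD68, which was at 174 against 117 FPKM (not called). The other 4 tested leukocyte markers rose from low levels, CSF1R from 0.23 to 5.45, CORO1A from 0.703 to 7.66, LAPTM5 from 0.903 to 4.49 and CD14 from 0.207 to 1.73 FPKM. All 4 reached the minimum for testing through HCC827_Er alone. ITGAM, set aside for low values, was lower, at 0.897 FPKM in HCC827 against 0.187 in HCC827_Er. The part of these levels in the results was not tested. In bulk RNA, fewer cells of a type and less RNA per cell cannot be told apart.

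**Figure D1:**
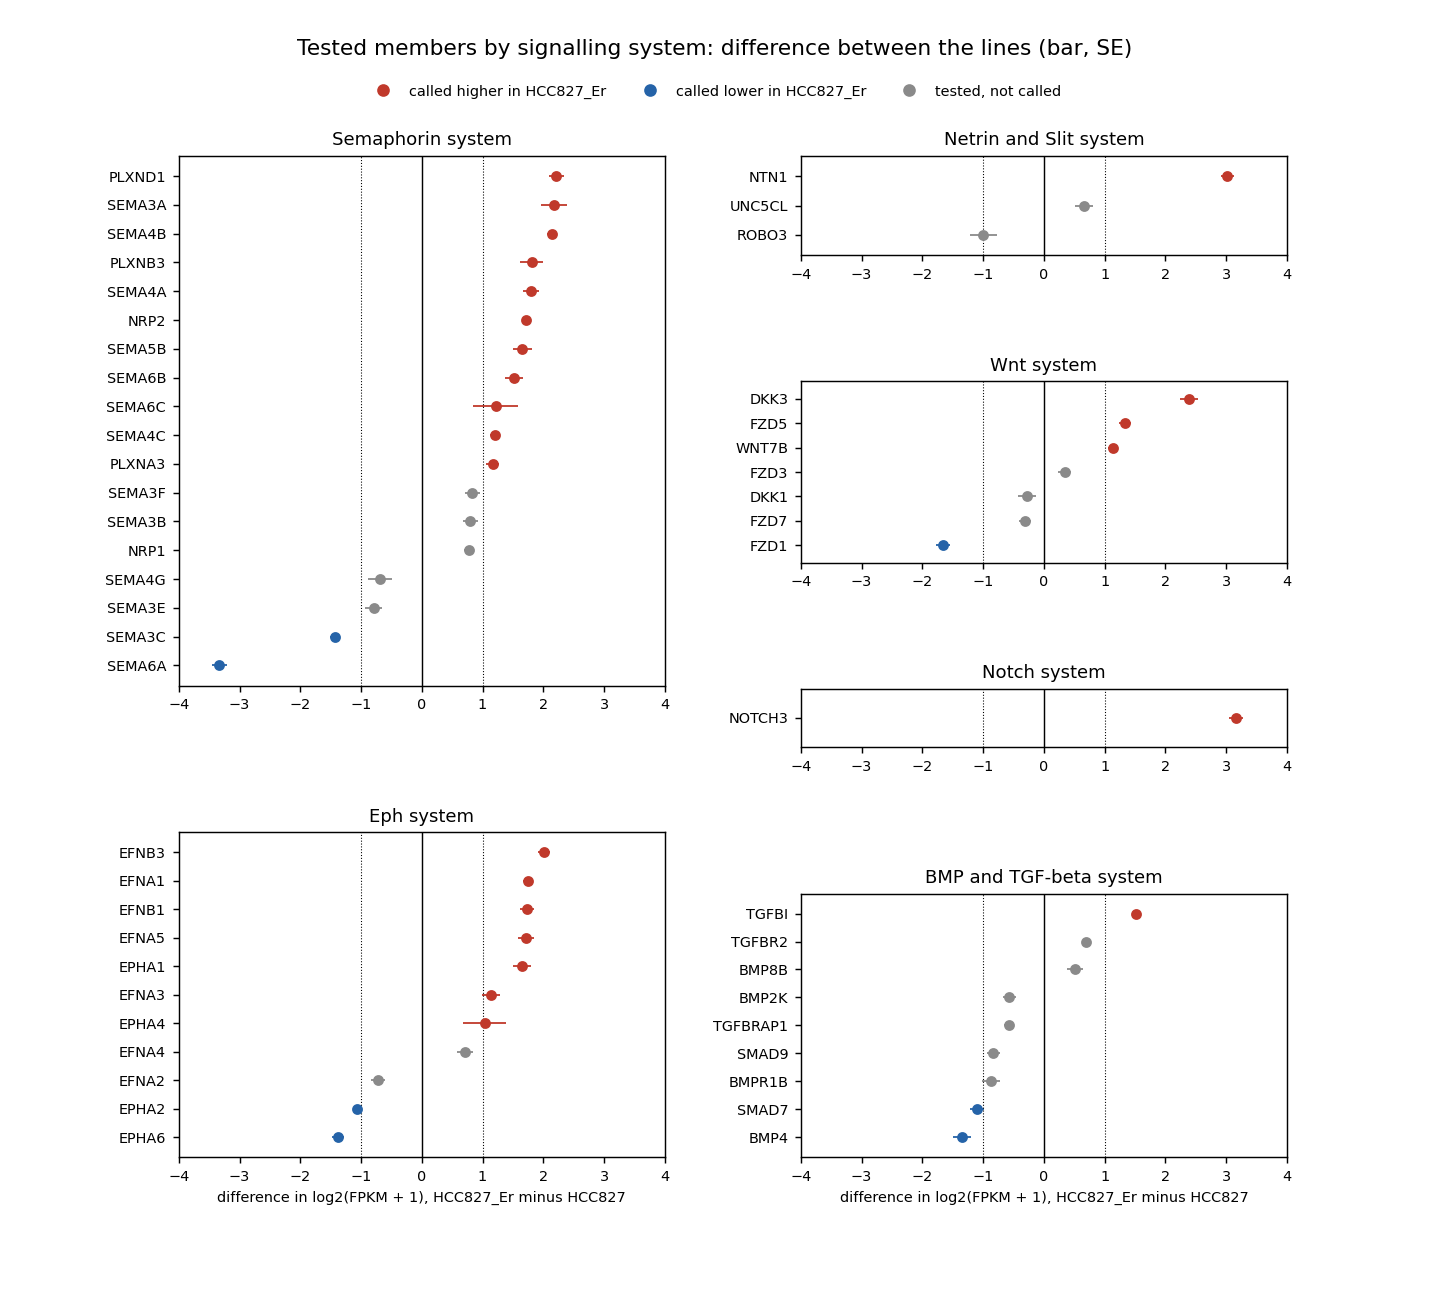
Difference in log2(FPKM + 1), HCC827_Er minus HCC827, for the 49 tested members in 6 panels by signalling system; points are limma estimates, bars their SE, the solid line 0 and the dotted lines the 2-fold minimum. Most semaphorin and Eph points lie to the right of the upper dotted line, while in the BMP and TGF-beta panel only TGFBI does; NOTCH3 at 3.15 and SEMA6A at -3.33 are the points farthest out.

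In the semaphorin system, 11 of 18 tested genes rose and 2 fell, with a median difference of 1.21. That is 61.1% and 11.1%, beside 24.7% and 19.7% of all genes tested, whose median was 0.43. After median-ratio rescaling it was 9 and 3, and after sum rescaling 13 and 2. All genes tested were then 17.1% higher and 31.7% lower after the first, and 34.6% and 15.0% after the second. These backgrounds stand beside every system and list below. The transmembrane semaphorins of classes 4 to 6 accounted for most of the ligands that rose. Of 8 tested, 6 rose and 1 fell, while of the 5 tested secreted semaphorins of class 3, 1 rose and 1 fell. SEMA4A, SEMA5B and SEMA6C passed the filter through HCC827_Er alone, and SEMA6A, which fell, through HCC827 alone. The filter favoured these calls, so the counts are no test of a difference between the classes. Of the 5 receptors and co-receptors, 4 rose and NRP1 stayed under the 2-fold minimum.

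SEMA4B, a transmembrane semaphorin, was the most abundant ligand of the system in HCC827_Er (chr15:90160604-90229679, plus strand in GENCODE 29 on GRCh38, as for all gene positions here). Its libraries held 31.2, 31.2 and 29.01 FPKM in HCC827 against 154, 131 and 130.1 in HCC827_Er. All HCC827_Er libraries lay far above all HCC827 libraries, the first of them highest. The difference was 2.14 ± 0.08 (SE), limma adjusted p = 2.73e-08, a ratio of mean FPKM of 4.54.

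SEMA6A, a transmembrane ligand of class A plexins (chr5:116443616-116574934, minus strand), moved the other way, and furthest of the tested members on the log2(FPKM + 1) scale. It had 12.2, 10.2 and 11.6 FPKM in HCC827 against 0.19, 0.35 and 0.13 in HCC827_Er. The gene was well expressed in every HCC827 library and under 1 FPKM in every HCC827_Er library, so it passed the filter through HCC827 alone. The difference was -3.33 ± 0.12 (SE), limma adjusted p = 3.32e-08. Its class mates were higher in HCC827_Er: SEMA6B, with 1.26 ± 0.17 FPKM in HCC827 against 5.49 ± 1.06 in HCC827_Er (SD, n = 3), rose by 1.51, and SEMA6C rose by 1.22. The SEMA6C libraries were 0.84, 0.44 and 0.64 FPKM in HCC827 against 6.64, 1.41 and 1.96 in HCC827_Er, so that 1 library stood high among the HCC827_Er libraries. Without that library, HCC827_Er replicate 1, the SEMA6C difference was 0.71 (limma adjusted p = 0.00298) and under the 2-fold minimum.

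Of the class 3 genes, SEMA3A, a secreted repellent that acts through NRP1 and class A plexins (chr7:83955777-84492724, minus strand), rose by 2.17 ± 0.22 (SE), limma adjusted p = 1.55e-05. It was at 1.68, 1.5 and 1.41 FPKM in HCC827 against 14.4, 6.94 and 11.1 in HCC827_Er. The HCC827_Er libraries spread widely but all exceeded the HCC827 libraries. SEMA3C, a secreted ligand that binds both neuropilins (chr7:80742538-80922359, minus strand), fell by 1.43 ± 0.07 (SE), limma adjusted p = 2.33e-07, with 35.5, 36.04 and 34.4 FPKM in HCC827 against 12.4, 13.2 and 11.7 in HCC827_Er. It was the most abundant class 3 gene in HCC827, with little spread in either line. SEMA3B, a secreted semaphorin of a chromosome 3 segment often lost in lung cancer, was at 13.4, 10.3 and 10.6 FPKM in HCC827 against 22.2, 21.7 and 18.1 in HCC827_Er. Its libraries did not overlap, yet the difference of 0.799 ± 0.12 (SE), limma adjusted p = 0.000198, was under the 2-fold minimum, and it was called higher after sum rescaling, at 1.03. SEMA3F, which binds NRP2 and lies 78.5 kb from SEMA3B, went the same way with 0.75 FPKM in HCC827 against 2.13 in HCC827_Er (difference 0.83, not called).

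SEMA3E, the direct ligand of PLXND1, averaged 8.82 FPKM in HCC827 against 4.6 in HCC827_Er. Its difference of -0.79 was not called, but was -1.09 and called lower after median-ratio rescaling. SEMA3E and SEMA3A are neighbours on chromosome 7, 307 kb apart, and their differences had opposite signs. SEMA3G was set aside for low values, at 0.18 to 0.2 FPKM in HCC827 and 0.43 to 0.48 FPKM in HCC827_Er.

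SEMA4A, a transmembrane semaphorin also known from immune cells, and SEMA5B, a transmembrane semaphorin with thrombospondin repeats, were nearly silent in HCC827. SEMA4A had 0.12, 0.03 and 0.25 FPKM in HCC827 against 2.73, 2.53 and 3.62 in HCC827_Er, a difference of 1.800 ± 0.14 (SE), limma adjusted p = 2.61e-06. SEMA5B had 0.02, 0.02 and 0.46 FPKM in HCC827 against 2.9, 2.68 and 2.32 in HCC827_Er, a difference of 1.66 ± 0.16 (SE), limma adjusted p = 1.11e-05. In both genes every HCC827 library was under 0.5 FPKM and every HCC827_Er library above 2 FPKM, so that they passed the filter through HCC827_Er alone. SEMA4C, a ligand of plexin-B2, rose by 1.202 in the deposited scaling, from 7.53 to 18.6 FPKM, and by 0.89 after median-ratio rescaling, which is under the minimum. SEMA4G, a further transmembrane semaphorin, was at 3.75 FPKM in HCC827 against 2.04 in HCC827_Er (-0.68, not called), and 22.3% of its exon bases overlap MRPL43 on the opposite strand. SEMA5A was set aside, at 0.19 to 1.11 FPKM in HCC827 and 0.05 to 0.1 FPKM in HCC827_Er.

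Most of the receptors rose as well. PLXND1, the plexin that binds SEMA3E without a neuropilin (chr3:129555175-129606818, minus strand), had 3.58, 3.87 and 2.89 FPKM in HCC827 against 22.1, 19.1 and 17.6 in HCC827_Er, a difference of 2.21 ± 0.12 (SE), limma adjusted p = 4.07e-07. Each HCC827_Er library was more than 4 times as high as any HCC827 library. PLXNB3, a receptor of SEMA5A (chrX:153764196-153779346, plus strand), had 10.5, 7.29 and 5.61 FPKM in HCC827 against 32.00, 24.3 and 31.3 in HCC827_Er, a difference of 1.81 ± 0.19 (SE), limma adjusted p = 2.39e-05. The HCC827 libraries differed among themselves but stayed below all HCC827_Er libraries; 20.4% of the PLXNB3 exon bases are shared with SRPK3 on the same strand, which was listed at 0.28 FPKM in HCC827 against 0.6 in HCC827_Er. PLXNA3, which joins neuropilins in the receptor of class 3 semaphorins and lies 679 kb from PLXNB3 on the X chromosome, was at 12.5, 11.4 and 14.2 FPKM in HCC827 against 32.2, 26.9 and 30.2 in HCC827_Er. Its difference was 1.17 ± 0.10 (SE), limma adjusted p = 6.39e-06, and 0.84 after median-ratio rescaling, not called.

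The neuropilins, co-receptors of class 3 semaphorins and of vascular endothelial growth factors, were both abundant. NRP2 (chr2:205681990-205798133, plus strand; promoter window printed above) had 10.5, 10.4 and 11.8 FPKM in HCC827 against 37.1, 39.1 and 38.4 in HCC827_Er, a difference of 1.72 ± 0.08 (SE), limma adjusted p = 1.02e-07. NRP1 (chr10:33177492-33336262, minus strand) had 33.8, 38.1 and 35.7 FPKM in HCC827 against 58.8, 60.4 and 66.2 in HCC827_Er, a difference of 0.77 ± 0.07 (SE), limma adjusted p = 9.76e-06, under the 2-fold minimum but called after sum rescaling, at 1.01. Neither gene's libraries overlapped between the lines. In HCC827 the mean of NRP1 was higher than that of NRP2, 35.9 against 10.9 FPKM, and in HCC827_Er it was 61.8 against 38.2 FPKM.

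**Figure D2:**
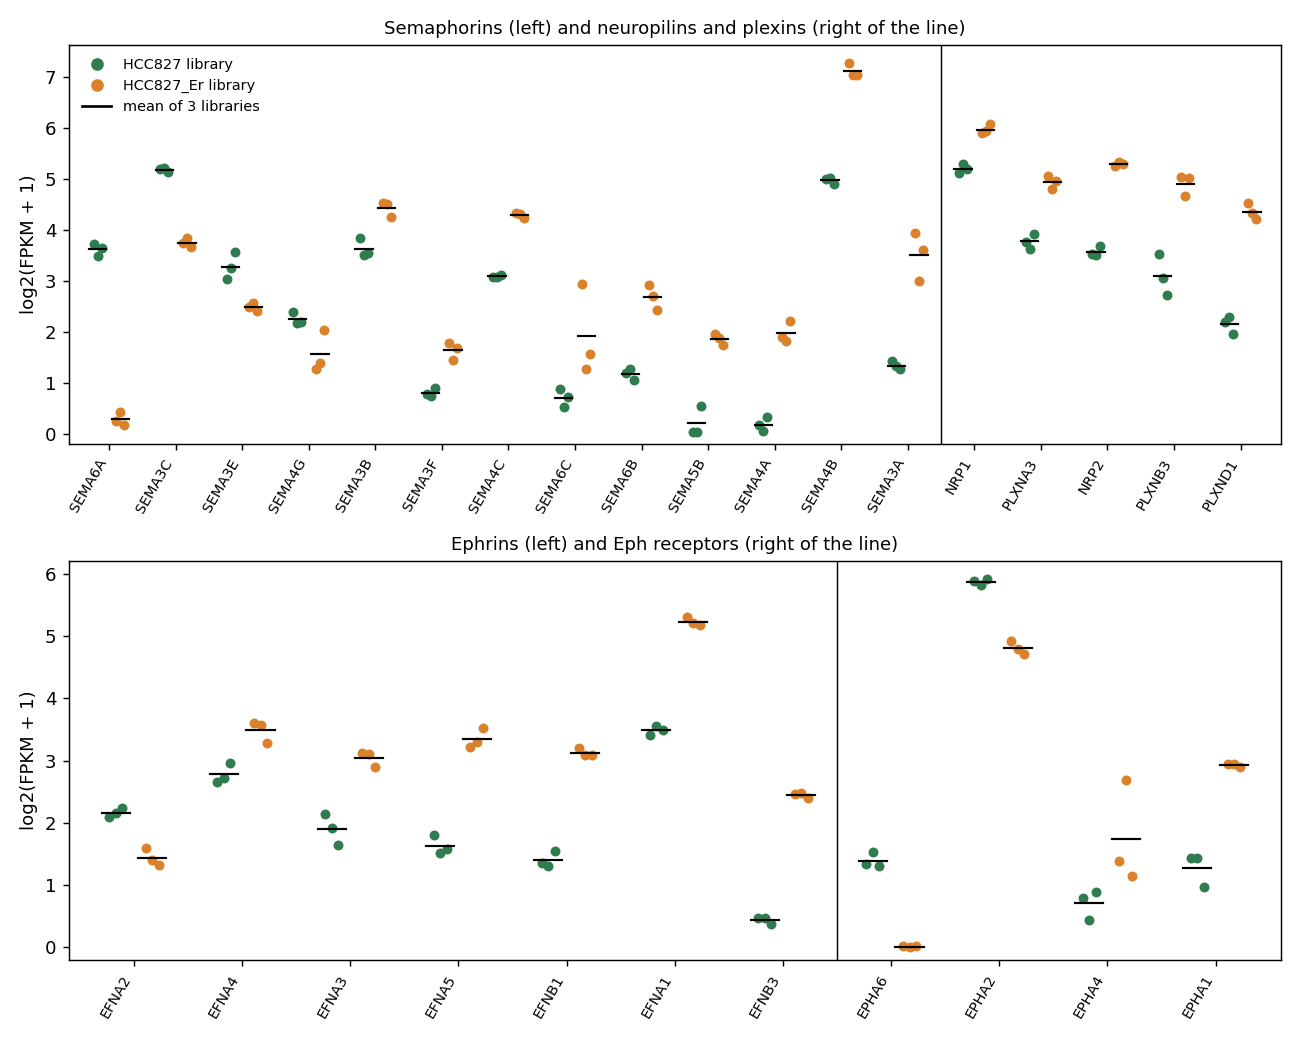
Log2(FPKM + 1) of each library for tested semaphorins with neuropilins and plexins (upper panel) and for tested ephrins and Eph receptors (lower panel), ordered by difference; green points are HCC827, orange points HCC827_Er, black bars means of 3 libraries. The orange points of SEMA6A sit near 0 and those of SEMA4B above 7, while the single high orange points of SEMA6C and EPHA4 stand apart from the other libraries of their line.

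In the Eph system, 7 of 11 tested genes rose and 2 fell, with a median difference of 1.14 (5 and 2 after median-ratio rescaling, 7 and 1 after sum rescaling). That is 63.6% and 18.2%, beside 24.7% and 19.7% of all genes tested. The ligands and receptors differed in how they were divided. Of 7 ephrins, all tested, 5 rose and EFNA2 and EFNA4 were under the 2-fold minimum. Of 9 listed Eph receptors only 4 could be tested, and EPHA1 and EPHA4 rose while EPHA2 and EPHA6 fell.

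EFNA1, a lipid-anchored ephrin and a main ligand of EPHA2 (chr1:155127460-155134857, plus strand), had 9.64, 10.7 and 10.3 FPKM in HCC827 against 38.6, 35.9 and 35.4 in HCC827_Er, a difference of 1.75 ± 0.08 (SE), limma adjusted p = 9.29e-08. EPHA2, the most abundant Eph receptor here (chr1:16124337-16156087, minus strand), had 57.8, 55.8 and 59.3 FPKM in HCC827 against 29.3, 26.6 and 25.3 in HCC827_Er, a difference of -1.07 ± 0.07 (SE), limma adjusted p = 1.19e-06. The ligand was thus higher and the receptor lower in every HCC827_Er library than in any HCC827 library. In mean FPKM, EPHA2 stood above EFNA1 in HCC827 (57.6 against 10.2) and below it in HCC827_Er (27.0 against 36.6). After sum rescaling the EPHA2 difference was -0.82, after quantile normalization -0.98 and with a pseudocount of 5 -0.97. EPHA2 was not called in any of these settings. Tested against a log2 difference of 1, it was not called either (limma treat adjusted p = 0.50).

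EFNA1, EFNA3 and EFNA4 lie side by side on chromosome 1, with 9.32 kb between EFNA4 and EFNA3 and 39.9 kb between EFNA3 and EFNA1. EFNA3, a lipid-anchored ligand of EphA receptors, was at 2.77 ± 0.645 FPKM in HCC827 against 7.27 ± 0.717 in HCC827_Er (SD, n = 3) and rose by 1.14 (0.87 after median-ratio rescaling, not called). EFNA4, of the same class, was at 5.89 ± 0.807 FPKM in HCC827 against 10.2 ± 1.37 in HCC827_Er (SD, n = 3), with a difference of 0.71, not called. All 3 were higher in HCC827_Er without overlap. A readthrough gene, AL691442.1, covers 44.7% of the exon bases of EFNA3 and 15.0% of those of EFNA4, so reads there could be split between them. Of 8 other listed genes within 500 kb of the cluster, 6 were tested, 1 (MUC1) was called higher and the median difference was -0.73.

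EFNA5, a lipid-anchored ephrin on chromosome 5 (chr5:107376889-107670895, minus strand; window printed above), had 2.48, 1.86 and 2 FPKM in HCC827 against 8.26, 8.86 and 10.5 in HCC827_Er, a difference of 1.71 ± 0.13 (SE), limma adjusted p = 2.71e-06. EFNB1, a transmembrane ephrin of the X chromosome (chrX:68828997-68842147, plus strand), had 1.56, 1.47 and 1.91 FPKM in HCC827 against 8.17, 7.54 and 7.52 in HCC827_Er, a difference of 1.73 ± 0.11 (SE), limma adjusted p = 1.1e-06. EFNB3, also transmembrane (chr17:7705202-7711378, plus strand), had 0.39, 0.38 and 0.3 FPKM in HCC827 against 4.5, 4.55 and 4.3 in HCC827_Er, a difference of 2.01 ± 0.10 (SE), limma adjusted p = 2.05e-07. In these 3 genes the HCC827_Er libraries lay close together and above all HCC827 libraries; EFNB3 passed the filter through HCC827_Er alone. EFNA2, a further lipid-anchored ephrin, went the other way at 3.49 FPKM in HCC827 against 1.72 in HCC827_Er (-0.73, not called).

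EPHA1, an epithelial Eph receptor (chr7:143390289-143408892, minus strand), had 1.69, 1.71 and 0.96 FPKM in HCC827 against 6.72, 6.67 and 6.41 in HCC827_Er, a difference of 1.65 ± 0.15 (SE), limma adjusted p = 7.19e-06. Its HCC827_Er libraries were almost equal and well above HCC827. An antisense gene, EPHA1-AS1, which the rule does not take because it is noncoding, was at 0.247 FPKM in HCC827 against 0.847 in HCC827_Er; whether counting used strand is not given in the sources used here. EPHA4, a receptor of both ephrin classes (chr2:221418027-221574202, minus strand), had 0.74, 0.36 and 0.85 FPKM in HCC827 against 1.62, 5.46 and 1.22 in HCC827_Er. One HCC827_Er library stood far above the other two, and the difference was 1.03 ± 0.36 (SE), limma adjusted p = 0.0195. Without that library, HCC827_Er replicate 2, it was 0.56 (limma adjusted p = 0.0116) and under the minimum, and without HCC827 replicate 2 it was 0.90 (limma adjusted p = 0.0679).

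EPHA6, an EphA receptor of nervous tissue, fell by 1.38 (limma adjusted p = 2.09e-06), with 1.52, 1.89 and 1.48 FPKM in HCC827 against 0.01, 0 and 0.01 in HCC827_Er. It was thus near 0 throughout HCC827_Er and passed the filter through HCC827 alone. The other 5 Eph receptors were set aside for low values. EPHA3 and EPHA5 were at 0.03 to 0.11 FPKM in HCC827 and listed at 0 in all HCC827_Er libraries. EPHA7 averaged 0.0667 FPKM in HCC827 against 0.38 in HCC827_Er, EPHB1 0.00667 FPKM in HCC827 against 0.16 in HCC827_Er, and EPHB3, an intestinal epithelial EphB receptor, 0.137 FPKM in HCC827 against 1.18 in HCC827_Er; all 3 were higher in HCC827_Er.

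In the netrin and Slit system, 3 of 6 listed genes were tested and NTN1 rose. NTN1 encodes netrin-1, a laminin-related secreted cue (chr17:9021542-9244000, plus strand). It had 0.09, 0.09 and 0.15 FPKM in HCC827 against 7.91, 7.77 and 8.3 in HCC827_Er. It was near the lower end of the table in every HCC827 library and close to 8 FPKM in every HCC827_Er library. NTN1 therefore passed the filter through HCC827_Er alone. The difference was 3.02 ± 0.10 (SE), limma adjusted p = 2.05e-08, beyond that of the other tested members except NOTCH3 and, in the other direction, SEMA6A.

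The netrin and Slit receptors among the members were low. UNC5C, a repulsive netrin receptor, was set aside at 0.06 ± 0.03 FPKM in HCC827 against 0.773 ± 0.221 in HCC827_Er (SD, n = 3), higher in HCC827_Er; it lies 4.06 kb from BMPR1B on chromosome 4, whose level was lower there. Its noncoding neighbour UNC5C-AS1 was at 0.03 FPKM in HCC827 against 0.527 in HCC827_Er. UNC5CL, which shares the name but is not a netrin receptor, was at 2.89 FPKM in HCC827 against 5.11 in HCC827_Er (0.66, not called), and 23.8% of its exon bases overlap OARD1. ROBO3, a Slit receptor family member that works in midline crossing, had 2.47, 3.87 and 2.44 FPKM in HCC827 against 1.57, 0.98 and 0.44 in HCC827_Er. Its difference of -0.996 on the log2(FPKM + 1) scale missed the minimum by little. In mean FPKM the ratio of HCC827 over HCC827_Er was 2.94. ROBO3 was called lower after median-ratio rescaling (-1.20) and without HCC827 replicate 1 (-1.08), HCC827 replicate 3 (-1.08), HCC827_Er replicate 1 (-1.198) or HCC827_Er replicate 2 (-1.01). ROBO1, the widely expressed Slit receptor, and SLIT3, a Slit ligand, were set aside: ROBO1 was at 0.18 to 0.81 FPKM and SLIT3 at 0.02 to 0.28 FPKM in HCC827, and both were listed at 0 in all HCC827_Er libraries.

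Other genes of guidance signalling were taken as a list of 45 co-receptors, adhesion partners and effectors inside the cell, of which 25 were listed and 22 tested. Here 3 rose and 8 fell, with a median difference of -0.80 (3 and 13 after median-ratio rescaling, 4 and 6 after sum rescaling), beside the 24.7% higher and 19.7% lower of all genes tested. NEO1, neogenin, which binds netrins and repulsive guidance molecules and is a relative of DCC, had 29.3, 31.7 and 28.3 FPKM in HCC827 against 5.11, 3.47 and 3.02 in HCC827_Er, a difference of -2.68 ± 0.15 (SE), limma adjusted p = 4.05e-07. CHL1, an L1-family adhesion protein and partner of neuropilins, was at 6.63 to 10.2 FPKM in HCC827 and listed at 0 in all HCC827_Er libraries. VAV3, a guanine nucleotide exchange factor that Eph receptors engage, fell by 2.52 (14.2 FPKM in HCC827 against 1.65 in HCC827_Er).

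Upward, RND1, a small GTPase that binds plexins, had 1.95, 2.05 and 2.49 FPKM in HCC827 against 10.8, 10.3 and 11.1 in HCC827_Er, a difference of 1.898 ± 0.11 (SE), limma adjusted p = 4.93e-07. NGEF, or ephexin, an exchange factor that acts below EphA receptors, rose by 1.74 (10.4 FPKM in HCC827 against 37.1 in HCC827_Er), and TIAM1, a Rac exchange factor that ephrins and Eph receptors recruit, by 1.56 (3.01 FPKM in HCC827 against 10.9 in HCC827_Er). For these 3 genes the HCC827_Er libraries all exceeded the HCC827 libraries.

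In the Wnt system, 3 of 7 tested members rose and 1 fell, with a median difference of 0.34 (2 and 1 after median-ratio rescaling, 3 and 1 after sum rescaling). That is 42.9% and 14.3%, beside 24.7% and 19.7% of all genes tested, whose median was 0.43. WNT7B, a ligand of the lung epithelium (chr22:45920362-45977129, minus strand), had 8.36, 7.56 and 8.11 FPKM in HCC827 against 18.7, 19.5 and 18.03 in HCC827_Er. The difference was 1.13 ± 0.08 (SE), limma adjusted p = 2.19e-06, and 0.82 after median-ratio rescaling, not called. WNT5A, WNT7A and WNT8B were set aside for low values: WNT5A, a ligand of branches that do not use beta-catenin, averaged 1.02 FPKM in HCC827 against 0.39 in HCC827_Er, WNT7A 0.00333 FPKM in HCC827 against 0.567 in HCC827_Er and WNT8B 0.09 FPKM in HCC827 against 0.527 in HCC827_Er. WNT7B was therefore the one Wnt ligand of the table at more than 2 FPKM.

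The Frizzled receptors split. FZD5 (chr2:207762586-207769563, minus strand; window printed above) had 2.86, 2.71 and 2.67 FPKM in HCC827 against 8.69, 8.19 and 8.37 in HCC827_Er, a difference of 1.33 ± 0.10 (SE), limma adjusted p = 2.33e-06. FZD1 (chr7:91264364-91271326, plus strand) had 6.67, 6.12 and 6.14 FPKM in HCC827 against 1.28, 1.49 and 1.18 in HCC827_Er, a difference of -1.66 ± 0.11 (SE), limma adjusted p = 1.17e-06. The libraries of each line lay close together, and the order of these receptors by mean FPKM was turned: FZD1 over FZD5 in HCC827 (6.31 against 2.75), FZD5 over FZD1 in HCC827_Er (8.42 against 1.32). FZD3 and FZD7 were low and not called, at 0.837 FPKM in HCC827 against 1.32 in HCC827_Er and at 1.44 FPKM in HCC827 against 0.953 in HCC827_Er, respectively.

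Of the secreted Dickkopf proteins, DKK3, a divergent member often silenced in tumours (chr11:11963106-12009769, minus strand), had 0.04, 0.45 and 0.12 FPKM in HCC827 against 5.99, 4.91 and 4.85 in HCC827_Er. All HCC827 libraries were under 0.5 FPKM and all HCC827_Er libraries above 4 FPKM, a difference of 2.39 ± 0.15 (SE), limma adjusted p = 8.68e-07. DKK3 passed the filter through HCC827_Er alone. DKK1, which blocks the Wnt co-receptor LRP6, had 4.54, 6.27 and 4.32 FPKM in HCC827 against 3.86, 4.43 and 3.57 in HCC827_Er. It was the one member whose libraries overlapped between the lines, and its difference was -0.28 ± 0.15 (SE), limma adjusted p = 0.0961.

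Of 63 other Wnt pathway genes, 21 were listed and 15 tested, with 7 risen and 2 fallen and a median difference of 0.87. That is 46.7% and 13.3%, beside 24.7% and 19.7% of all genes tested. After median-ratio rescaling it was 3 and 2, and after sum rescaling 8 and 2. RNF43, the ubiquitin ligase that removes Frizzled receptors from the surface and is itself induced by Wnt signalling, had 0, 0.02 and 0 FPKM in HCC827 against 5.49, 5.9 and 5.38 in HCC827_Er, a difference of 2.71 ± 0.10 (SE), limma adjusted p = 3.15e-08. It was at or near 0 in HCC827 and above 5 FPKM in every HCC827_Er library, so it passed the filter through HCC827_Er alone. KREMEN2, a Dickkopf receptor, rose by 1.51 (0.433 FPKM in HCC827 against 3.1 in HCC827_Er), and NKD2, an inhibitor of Dishevelled, by 1.44 (1.6 FPKM in HCC827 against 6.26 in HCC827_Er). CTNNB1, which encodes beta-catenin, had 83.7, 81.7 and 87.5 FPKM in HCC827 against 206, 204 and 195 in HCC827_Er, a difference of 1.25 ± 0.05 (SE), limma adjusted p = 6.14e-08, and 0.91 after median-ratio rescaling, not called.

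In the other direction, WLS, which carries Wnt ligands to the cell surface, had 44.8, 39.1 and 45.7 FPKM in HCC827 against 16.7, 15.6 and 16.1 in HCC827_Er, a difference of -1.37 ± 0.08 (SE), limma adjusted p = 4.98e-07. GPC4, a cell-surface heparan sulfate proteoglycan that binds Wnt ligands, fell by 2.34, from 4.36 to 0.06 FPKM. AXIN2, a feedback inhibitor widely read as a Wnt target, was set aside for low values, at 1.04 ± 0.181 FPKM in HCC827 against 0.263 ± 0.0651 in HCC827_Er (SD, n = 3).

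In the Notch system, NOTCH3 alone of the 3 listed members was tested, and it rose. NOTCH3 encodes a Notch receptor (chr19:15159038-15200981, minus strand; window printed above). It had 0.81, 0.68 and 0.65 FPKM in HCC827 against 16.01, 13.5 and 13.3 in HCC827_Er. Every HCC827 library was under 1 FPKM and every HCC827_Er library above 13 FPKM, so the gene passed the filter through HCC827_Er alone. The difference was 3.15 ± 0.12 (SE), limma adjusted p = 3.13e-08, a ratio of mean FPKM of 20.04. The listed ligands were low: DLL1 averaged 0.00333 FPKM in HCC827 against 0.4 in HCC827_Er and DLL4 0.91 FPKM in HCC827 against 0.49 in HCC827_Er.

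Among 45 other Notch pathway genes, 18 were listed, 13 tested, 3 risen and 2 fallen, with a median difference of 0.69 (3 and 5 after median-ratio rescaling, 4 and 2 after sum rescaling). These shares, 23.1% and 15.4%, were near the 24.7% and 19.7% of all genes tested. LFNG, a Fringe glycosyltransferase that changes which ligands activate Notch, had 60.4, 58.4 and 53.1 FPKM in HCC827 against 18.6, 16.3 and 17.5 in HCC827_Er, a difference of -1.66 ± 0.08 (SE), limma adjusted p = 1.39e-07. The Neuralized ligases, which act on Notch ligands, moved apart: NEURL1 fell by 1.96 (8.25 FPKM in HCC827 against 1.45 in HCC827_Er) and NEURL1B rose by 1.66 (0.24 FPKM in HCC827 against 2.93 in HCC827_Er). DNER, an unusual Notch ligand, rose by 1.69 (0.163 FPKM in HCC827 against 2.78 in HCC827_Er), and DTX4, a Deltex ligase, by 1.497 (2.3 FPKM in HCC827 against 8.31 in HCC827_Er).

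The effector RBPJ, the DNA-binding partner of cleaved Notch, had 27.7 FPKM in HCC827 against 46.8 in HCC827_Er (0.73, not called). HES1, the Notch target repressor, had 15.5, 15.2 and 14.9 FPKM in HCC827 against 10.3, 8.34 and 8.45 in HCC827_Er. Its HCC827_Er libraries were below all HCC827 libraries, the opposite direction from NOTCH3, but the difference of -0.696 was under the 2-fold minimum though called lower after median-ratio rescaling, at -1.01. HES4, of the same family, was similar at 18.7 FPKM in HCC827 against 10.1 in HCC827_Er (-0.804, and -1.12 and called lower after median-ratio rescaling). The other listed HES genes were set aside for low values and were higher in HCC827_Er without overlap. HES2 was at 0.11 FPKM in HCC827 against 0.63 in HCC827_Er. HES7 was at 0.03 FPKM in HCC827 against 1.1 in HCC827_Er (1.02 and called higher with no filter).

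In the BMP and TGF-beta system, 1 of 9 tested members rose and 2 fell, with a median difference of -0.58 (1 and 4 after median-ratio rescaling, 1 and 1 after sum rescaling). That is 11.1% and 22.2%, beside 24.7% and 19.7% of all genes tested. TGFBI, a matrix protein named for its induction by TGF-beta (chr5:136028895-136063818, plus strand), was the most abundant member. It had 328, 337 and 343 FPKM in HCC827 against 963, 958 and 956 in HCC827_Er. The libraries of a line were nearly equal, and the difference was 1.51 ± 0.04 (SE), limma adjusted p = 5.88e-09, a ratio of mean FPKM of 2.85.

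BMP4, a ligand of lung branching (chr14:53949736-53958761, minus strand), had 4.62, 4.71 and 6.28 FPKM in HCC827 against 1.8, 1.16 and 1.33 in HCC827_Er. All HCC827_Er libraries were under 2 FPKM and all HCC827 libraries above 4 FPKM, a difference of -1.35 ± 0.15 (SE), limma adjusted p = 3.04e-05. BMP5 was set aside at 0.957 ± 0.0802 FPKM in HCC827 against 0.00667 ± 0.0115 in HCC827_Er (SD, n = 3), lower in HCC827_Er, and BMP3, a ligand that opposes other BMPs, at 0.00667 FPKM in HCC827 against 0.46 in HCC827_Er, higher there. BMP8B was at 2.52 FPKM in HCC827 against 4.04 in HCC827_Er (0.51, not called); it has a near-identical copy, BMP8A, so the split of reads is uncertain.

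Among receptors, TGFBR2, the type II TGF-beta receptor (chr3:30606502-30694142, plus strand), had 18.4, 17.7 and 18.7 FPKM in HCC827 against 27.5, 31.9 and 31.5 in HCC827_Er. The lines did not overlap, but the difference of 0.699 ± 0.08 (SE), limma adjusted p = 3.24e-05, was under the 2-fold minimum. BMPR1B, a type I BMP receptor, was at 1.96 ± 0.351 FPKM in HCC827 against 0.623 ± 0.275 in HCC827_Er (SD, n = 3), a difference of -0.87 that was not called; it was called lower after median-ratio rescaling (-1.05) and without HCC827_Er replicate 2 (-1.01). TGFBR3, the co-receptor betaglycan, was set aside at 1.21 FPKM in HCC827 against 0.41 in HCC827_Er.

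Inside the cell, SMAD7, an inhibitory SMAD that TGF-beta and BMP signals induce (chr18:48919853-48952052, minus strand), had 14.7, 15.7 and 16.7 FPKM in HCC827 against 6.26, 6.25 and 8.03 in HCC827_Er, a difference of -1.096 ± 0.11 (SE), limma adjusted p = 1.84e-05. Its HCC827_Er libraries were all below HCC827, and after sum rescaling the difference was -0.87 and not called. SMAD9, a receptor-activated SMAD of the BMP branch, was at 2.11 ± 0.199 FPKM in HCC827 against 0.75 ± 0.148 in HCC827_Er (SD, n = 3), a difference of -0.83 that was not called, though it was after median-ratio rescaling (-1.02). TGFBRAP1, a trafficking protein first found bound to TGF-beta receptors, was at 15.02 FPKM in HCC827 against 9.77 in HCC827_Er (-0.58, not called). BMP2K, a kinase that shares only the name, was at 7.31 FPKM in HCC827 against 4.6 in HCC827_Er (-0.57, not called), and 56.8% of its exon bases overlap PAQR3 on the opposite strand, which was at 14.99 FPKM in HCC827 against 10.2 in HCC827_Er.

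**Figure D3:**
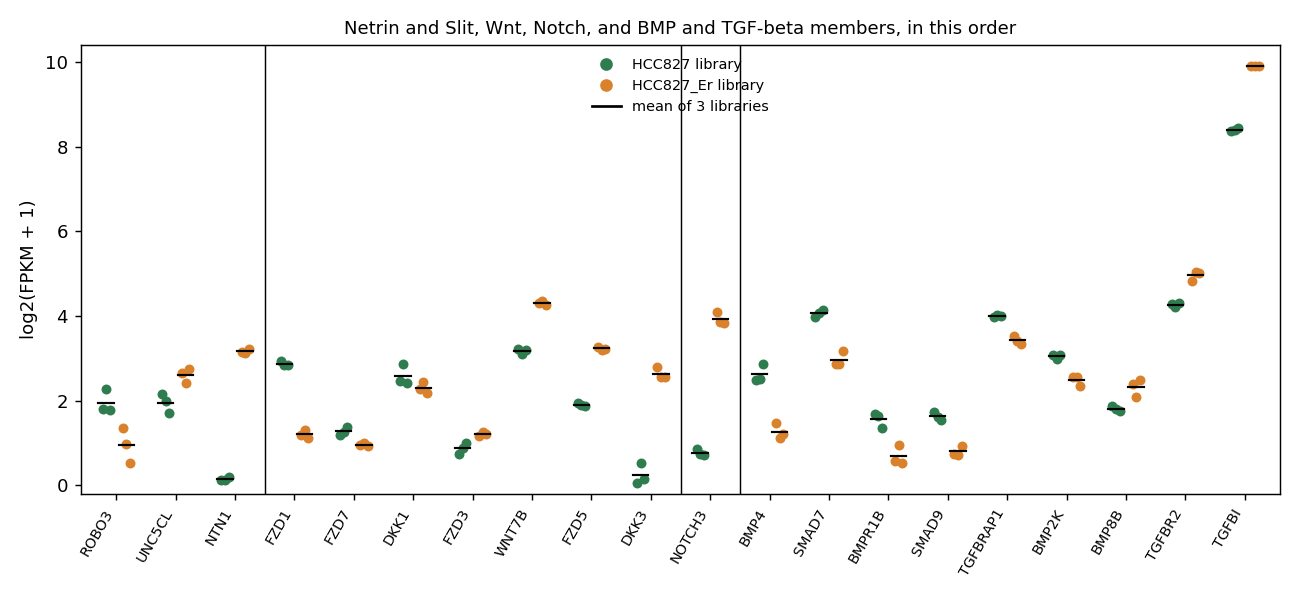
Log2(FPKM + 1) of each library for the tested netrin and Slit, Wnt, Notch, and BMP and TGF-beta members, with vertical lines between the systems; green points are HCC827, orange points HCC827_Er, black bars means of 3 libraries. NTN1, DKK3 and NOTCH3 start near or below 1 in HCC827 and lie above 2 in HCC827_Er, DKK1 overlaps, and FZD1, BMP4 and SMAD7 are lower in HCC827_Er.

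Of 60 other BMP and TGF-beta genes, 26 were listed and 19 tested, with 5 risen and 9 fallen and a median difference of -0.75. That is 26.3% and 47.4%, beside 24.7% and 19.7% of all genes tested. After median-ratio rescaling it was 2 and 10, and after sum rescaling 5 and 9. CCN2, connective tissue growth factor, is a textbook target of TGF-beta that other signals, YAP among them, also induce. It had 36.02, 35.4 and 33.3 FPKM in HCC827 against 1.17, 1.3 and 1.92 in HCC827_Er, a difference of -3.88 ± 0.13 (SE), limma adjusted p = 1.66e-08. FSTL1, a secreted follistatin-like protein, fell by 2.74 (88.2 FPKM in HCC827 against 12.6 in HCC827_Er), and THBS1, which can activate latent TGF-beta, fell by 2.36 (55.6 FPKM in HCC827 against 10.2 in HCC827_Er). In these 3 genes every HCC827_Er library was below every HCC827 library.

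PMEPA1, a TGF-beta-induced inhibitor of the pathway, went the opposite way with 5.18, 4.98 and 3.6 FPKM in HCC827 against 25.9, 20.2 and 21.6 in HCC827_Er, a difference of 2.08 ± 0.14 (SE), limma adjusted p = 1.34e-06. Together with TGFBI, genes known as TGF-beta targets were thus found on both sides. INHBB, an activin subunit, rose by 2.45 (0.04 FPKM in HCC827 against 4.69 in HCC827_Er). LTBP4 and LTBP3, which tether latent TGF-beta to the matrix, rose by 1.11 (10.7 FPKM in HCC827 against 24.2 in HCC827_Er) and by 1.04 (36.8 FPKM in HCC827 against 76.2 in HCC827_Er), and neither was called after median-ratio rescaling. LTBP3 was also not called without HCC827 replicate 2 (0.91) or HCC827_Er replicate 1 (0.96). Without either of these libraries the list had 3 genes risen in place of 5. ID3, a target of BMP signals and chosen here after its values were seen, fell by 1.62 (289 FPKM in HCC827 against 93.7 in HCC827_Er).

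**Figure D4:**
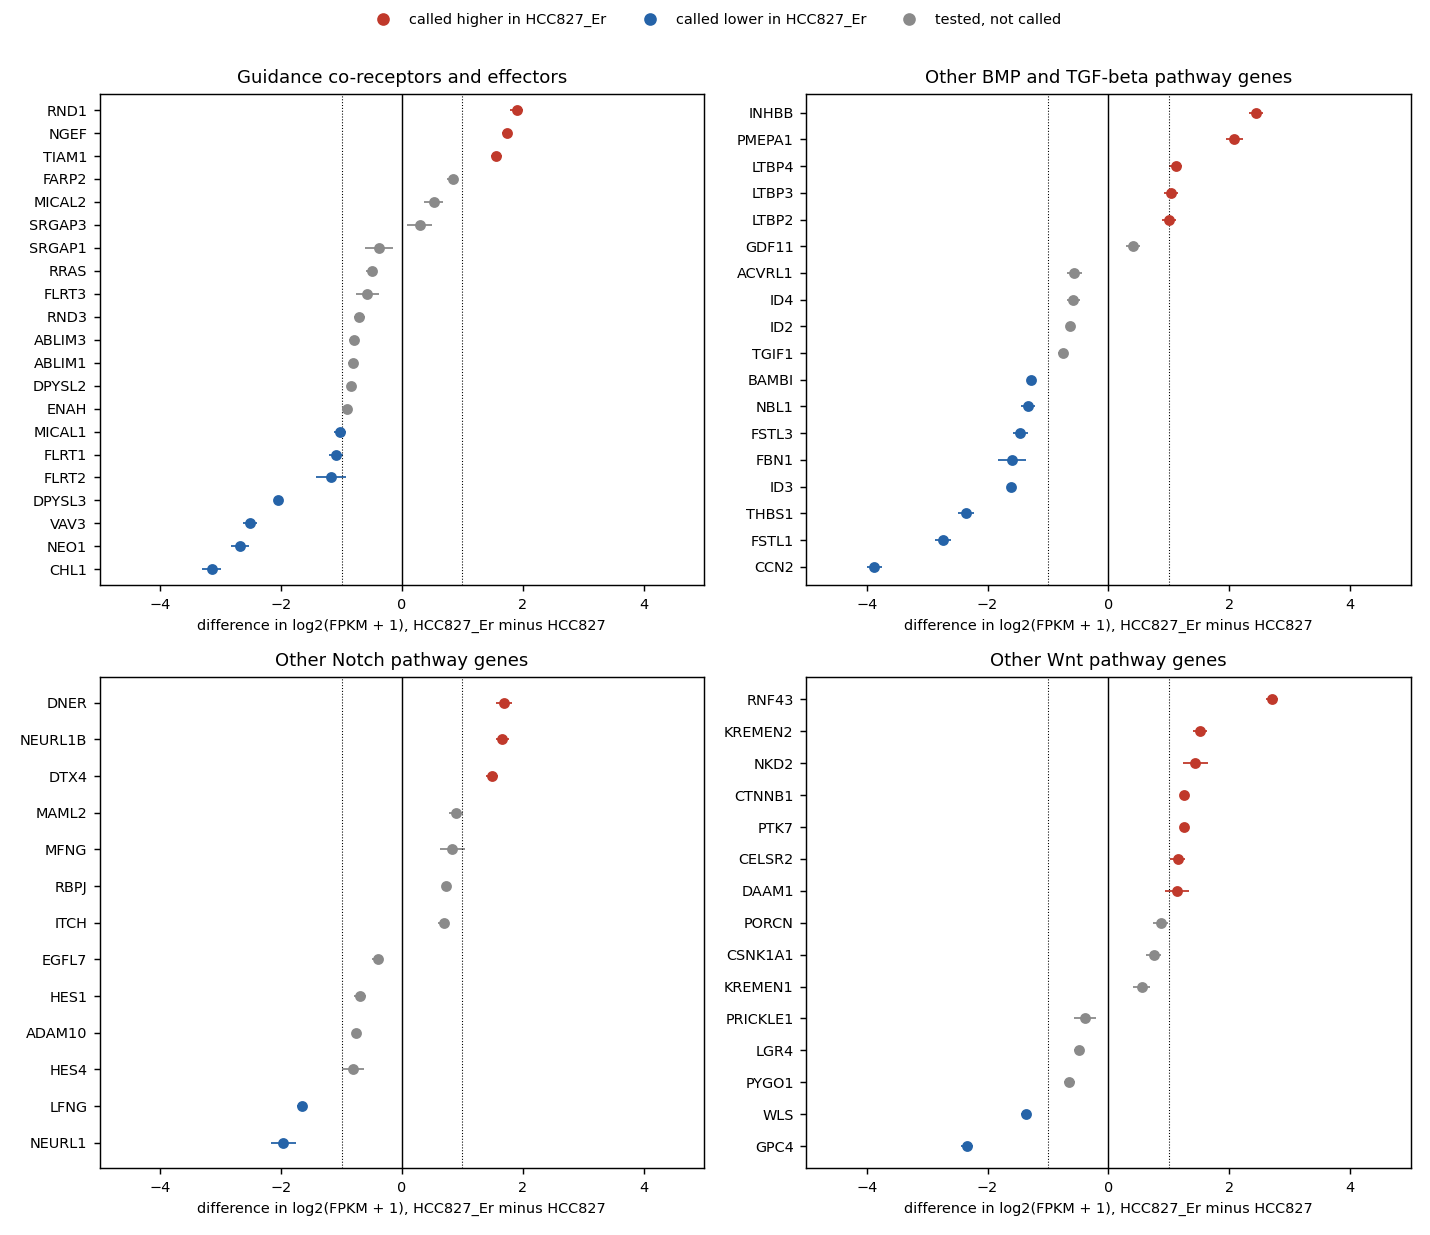
Difference in log2(FPKM + 1), HCC827_Er minus HCC827, for tested genes of the 4 pathway lists beyond the named families, with 1 gene called lower not drawn in each of the guidance and the BMP and TGF-beta panels; points are limma estimates, bars their SE, dotted lines the 2-fold minimum. The guidance and the BMP and TGF-beta panels show 7 and 8 genes called lower against 3 and 5 called higher, and the Wnt panel 7 called higher against 2 called lower.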

How the data were processed

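Total RNA of 3 HCC827 and 3 HCC827_Er libraries was prepared with an Illumina TruSeq RNA kit, and the RNA is described as taken from tissue samples, per the labels' protocols. Gene-level FPKM for each library was deposited as a single table. Per the submitters' processing notes, fastp, HISAT2 and StringTie were used; GRCh38.p14 and hg19 appear there with no role. Versions, annotation, strandedness of counting and the choice of listed genes are not stated there. FPKM values are relative within a library, so very abundant transcripts lower all other values. The listed genes summed to 184633 to 224211 FPKM per library, the smallest value above 0 was 0.01, and the depth is unknown.

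Symbols were matched by Ensembl identifier for 6636 of 6641 genes. Gene types, positions and exon overlaps came from GENCODE 29, and promoter windows from RefSeq. Members and pathway lists were chosen with earlier results of these data known, so they are no independent support.

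Values were tested as log2(FPKM + 1) in limma 3.58.1 (R 4.3.3, mean-variance trend, cell line as the only term) over the 5276 genes with FPKM of at least 1 in at least 3 of 6 libraries. P-values were adjusted by Benjamini-Hochberg over all of them, and 1365 genes were set aside. Library values are given for up to 4 called members in each direction of each family group, those with the largest differences and a mean of at least 2 FPKM in the higher line. They are also given for members under the 2-fold minimum with a mean of at least 20 FPKM. Library values of DKK1, ROBO3, SEMA6C, EPHA6 and HES1 are given too and were chosen after their values were seen. AXIN2, RBPJ, HES2, HES4 and HES7 are given by their means and were also chosen after their values were seen. From each pathway list up to 4 called genes in each direction are named by the same rule. Of these, 2 genes enter the counts but are not reported here. Alternatives changed the pseudocount, filter, scaling, limma settings, call rule and libraries, and added the replicate number as a block.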

Additional observations from a re-analysis of the deposited data

How the results depend on the processing

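Across the alternatives run, no tested member's difference changed sign. A pseudocount of 5 cost the most calls, 20 of the 31 members: 9 members were then higher and 2 lower, with 5 semaphorin and 1 Eph genes higher, none of the Eph, Wnt, and BMP and TGF-beta members lower, and no Wnt member higher. The lists then had 5 guidance genes lower, 3 Wnt genes higher and 1 lower, 0 Notch genes higher and 1 BMP and TGF-beta gene higher, and all genes 579 higher and 506 lower. A pseudocount of 0.1 gave 1 netrin and Slit member and 4 BMP and TGF-beta members lower and 5 Notch list genes higher.

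Requiring 1 FPKM in all 6 libraries left 15 members higher, 1 semaphorin gene lower, 4 Eph genes higher and 1 lower, and 0 netrin and Slit and 0 Notch members higher. The lists then had 4 guidance genes lower, 4 Wnt genes higher and 1 lower, and 1 Notch gene higher and 1 lower, and all genes 753 higher and 650 lower; this setting tests fewer genes.

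Median-ratio rescaling gave 11 members lower, 1 of the netrin and Slit system and 4 of the BMP and TGF-beta system. It also gave 13 guidance list genes lower, 3 Wnt list genes higher, 5 Notch list genes lower, 2 BMP and TGF-beta list genes higher, and 1671 of all genes lower. Sum rescaling left 1 Eph and 1 BMP and TGF-beta member lower. Quantile normalization gave 1 Eph, 1 netrin and Slit and 4 BMP and TGF-beta members lower. EPHA2, EPHA4, EFNA3 and SEMA6C, called in the deposited scaling, were then not called.

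With no minimum difference, 16 members were lower (4 semaphorin, 1 netrin and Slit, 2 Wnt, 6 BMP and TGF-beta), and 2 netrin and Slit and 3 BMP and TGF-beta members higher. In the lists, 5 guidance genes were higher and 15 lower, 4 Wnt genes lower, and 7 Notch genes higher and 6 lower; over all genes it was 2672 and 2515. Testing against a log2 difference of 1 (limma treat) left 4 members lower, 1 of them in the Eph system and 0 in the BMP and TGF-beta system, 5 guidance list genes lower, 4 Wnt list genes and 2 BMP and TGF-beta list genes higher, and 827 and 664 of all genes.

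Leaving out each library in turn gave 23 to 24 members higher and 7 to 9 lower. The netrin and Slit count of lower genes ran from 0 to 1 (ROBO3), and the BMP and TGF-beta list's count of higher genes from 3 to 5. Deviations of same-numbered libraries correlated at 0.11, -0.02 and 0.05, and those of differently numbered libraries at -0.09 to 0.04. These few values cannot settle whether replicate numbers pair the libraries. With the replicate number as a block, 24 members were higher and 7 lower, and over all genes 1304 and 1041, and the block changed no member's call. Depth is unknown, so counting error in genes under 1 FPKM cannot be given. The causes of these shifts were not tested.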
